A study of Mus musculus with 4 samples.

Results

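The HOX genes, their MEIS and PBX cofactors and the LIM homeobox (LHX) genes were examined in 2 mouse tumour cell lines. Members were all genes whose symbol in the platform annotation is a HOX gene of the A to D clusters or a numbered Meis, Pbx or Lhx gene with 1 digit, each read by its probe set of highest mean signal among probe sets with a single gene symbol. This gave 51 members of the 19938 genes with such a probe set: 37 HOX, 3 Meis, 3 Pbx and 8 Lhx genes, each with 1 probe set. Hoxb8 shares its probe set with Hoxb7, and that probe set was left out.

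The lines, named 365 and 167, came from soft tissue tumours labelled MRT, which are Smarcb1 deficient and p53 null and arose in mice heterozygous for Smarcb1 on a C57BL6/SV129J background. Smarcb1 was put back into each line with the pMIG retrovirus, or the line received empty pMIG, and total RNA was taken 3 days later and read on 1 whole-transcript array per line and vector, 4 in all. The groups were thus line 365 with Smarcb1, line 365 with empty vector, line 167 with Smarcb1 and line 167 with empty vector. By their labels all 4 share the loss of p53 and of endogenous Smarcb1, and they differ in line and in vector. Each line is 1 tumour, no repeat culture is named in the labels, and arrays cannot tell fewer cells expressing a gene from less RNA per cell.

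HOX genes encode homeodomain transcription factors that give cells a position along the head-to-tail axis and along the limbs. They lie in 4 clusters in which low paralogue numbers, at the 3′ end, are used early and towards the head, and high numbers, at the 5′ end, later and towards the tail and the limb tips. MEIS and PBX proteins are homeodomain partners that bind DNA together with HOX proteins, and LHX proteins carry LIM domains through which they bind the adaptor Ldb1. Fibroblasts are known to keep much of the HOX code of their site of origin. Whether these tumour lines do so was not tested.

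Smarcb1, the SWI/SNF remodeller subunit restored by the virus, read log2 9.61 with Smarcb1 against 6.01 with empty vector in line 365, and 7.83 against 4.61 in line 167 (limma adjusted p = 0.0371). Signal of the virus's own gene was thus higher on the array labelled Smarcb1 of each line. It also differed between the lines, being 1.59 higher in line 365 (adjusted p = 0.0177) and higher there under both vectors, and the part of this in the other line differences was not tested. Across the 13956 tested genes the arrays of a line correlated at r = 0.970 (365) and 0.959 (167), and arrays of the same vector in different lines at 0.922 (Smarcb1) and 0.907 (empty vector), a description across genes. Of the fixed cell type markers, the mesenchymal genes had 0 of 9 tested genes higher and 5 lower in line 365, among them Col3a1, Prrx1 and Pdgfrb at -5.19, -2.80 and -4.08 (log2, 365 minus 167). Their summed linear signal was 11815 with Smarcb1 and 11188 with empty vector in line 365, against 21105 and 18814 in line 167, and 9 of 10 markers reached the low-value limit on every array. Of the endothelial markers 1 of 2 tested genes passed, Cdh5, which read 8.29 and 9.06 in line 365 against 3.64 and 3.78 in line 167 (difference 4.97, limma adjusted p = 0.00296), while Tek stayed below the limit on all 4 arrays. The other tested endothelial marker, Kdr, was at 0.26 and did not pass (limma adjusted p = 0.287). The summed signal of the endothelial list was 375 and 591 in line 365 against 67.3 and 62.9 in line 167. In line 365 most of this sum was Cdh5 alone, so it does not speak for the list. Skeletal muscle, epithelial, neural crest, neuronal and leukocyte markers had 0 calls between the lines. Of all tested genes 5.31% were called higher and 5.64% lower in line 365. The part of these marker differences in the results below was not tested.

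The low-value limit was log2 4.27, the 30th percentile of gene means. On single arrays 47 members with Smarcb1 and 47 with empty vector reached it in line 365, against 45 and 45 in line 167. By mean signal 46 members entered the test and 5 did not (Hoxa13, Hoxc11, Hoxc13, Hoxd1 and Lhx5). Among the tested members 1, Lhx8, had a mean below the limit in one of the lines. Probe sets differ in background and response, so levels of different genes are not compared. In the values that follow, the first of a pair is the Smarcb1 array and the second the empty-vector array of the line named.

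The HOX pattern differed between the lines. The HOXA genes from Hoxa2 to Hoxa10, with Hoxb2, Hoxb6 and Hoxc10, were lower in line 365, apart from Hoxa4, and Hoxd13, Hoxd8, Hoxd10, Hoxc6 and Hoxc8 were higher there, with Meis1, Meis2 and Lhx2. In the limma fit with line and vector as terms, 18 of the 46 tested members (39.1%) passed an adjusted p below 0.05 between the lines, against 10.9% of all tested genes. Of them 8 were higher in line 365 (all tested genes 5.31%) and 10 lower (5.64%), and all 18 had the same sign under both vectors. The median difference was -0.18 for the tested members and -0.02 for all tested genes. The test sets the difference between lines against the residual of this fit, which has 1 degree of freedom, so it speaks for these 4 arrays and not for tumours at large. Without the vector as a term the count of members was 10.

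**Figure D1:**
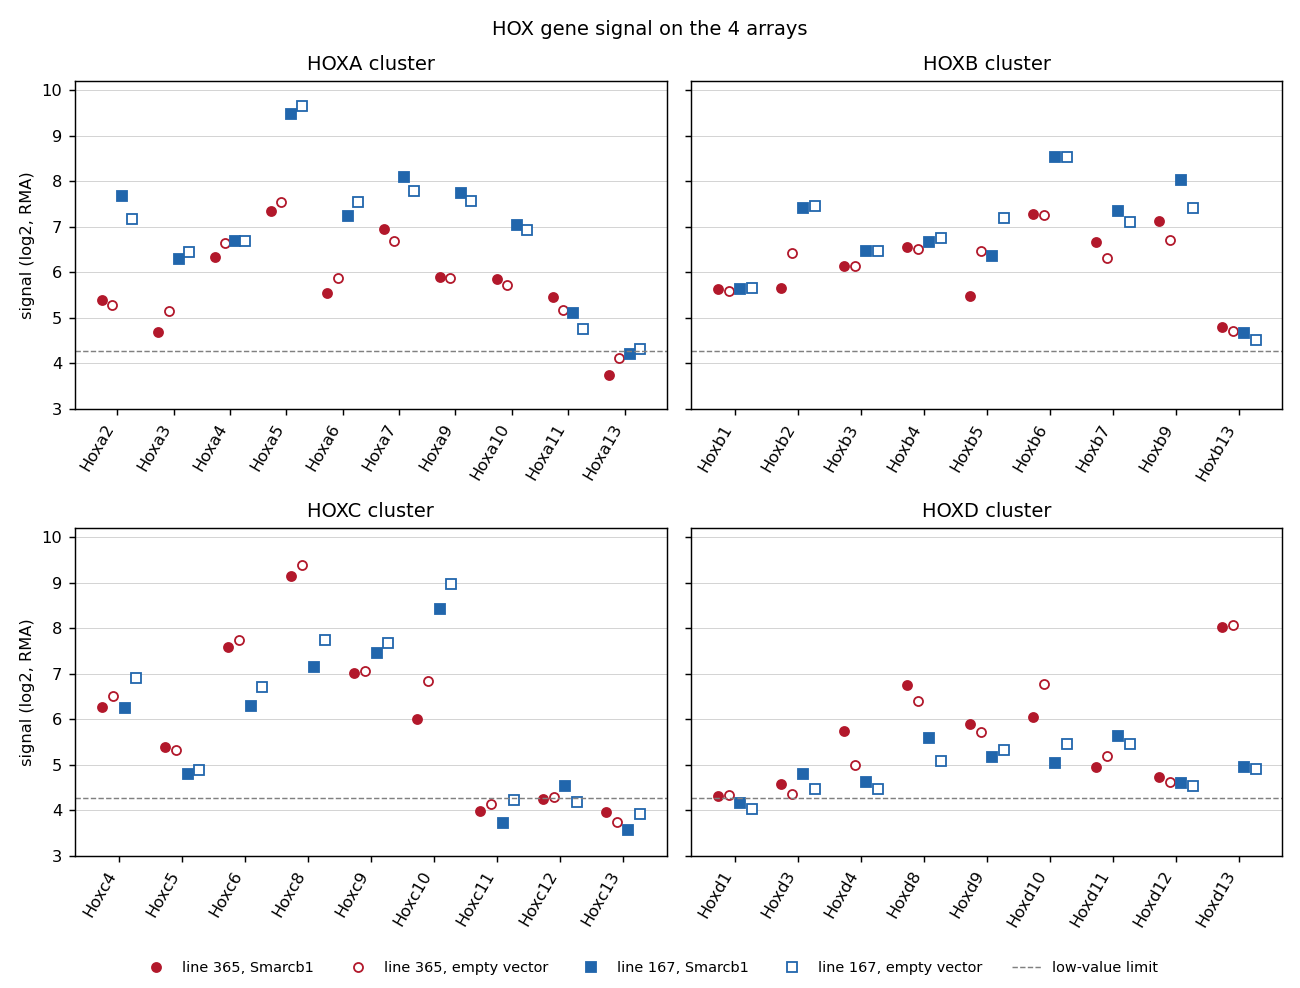
Signal of the 37 HOX genes on each of the 4 arrays (log2 RMA signal, vertical axis), by cluster and in order of paralogue number, with a dashed line at the low-value limit of 4.27. In the HOXA panel the line 167 squares lie above the line 365 circles from Hoxa2 to Hoxa10, narrowly for Hoxa4, and in the HOXD panel Hoxd13 reads 8.03 and 8.08 in line 365 against 4.95 and 4.90 in line 167.

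Hoxd13, which patterns digits and the genital tubercle, had the widest gap of the members. It read 8.03 and 8.08 in line 365, against 4.95 and 4.90 in line 167. The arrays of line 365 lay far above both arrays of line 167, and the difference was 3.12 ± 0.19 (moderated SE, 2 arrays per line), or 8.72-fold, with limma adjusted p = 0.00408. Its neighbours did not share this gap. Hoxd12 read 4.73 and 4.62 in line 365 against 4.59 and 4.53 in line 167, and Hoxd11 4.95 and 5.19 in line 365 against 5.62 and 5.46 in line 167, and neither passed (adjusted p = 0.641 and 0.178). Hoxd12 lay close to the low-value limit of 4.27 on all 4 arrays, where a difference between the lines could go unseen.

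Further towards the 3′ end of the HOXD cluster, Hoxd10 and Hoxd8 were higher in line 365. Hoxd10, which acts in lumbar motor neurons and the limb, read 6.05 and 6.77 in line 365 against 5.03 and 5.45 in line 167 (1.17 ± 0.19, adjusted p = 0.0320). Hoxd8 read 6.74 and 6.40 against 5.59 and 5.09 in line 167 (1.23 ± 0.19, adjusted p = 0.0269). For both genes the lines did not overlap. With 2 arrays per line this was also so for members that did not pass, such as Hoxb7, and adds little to the test. Hoxd4 read 5.75 and 5.0 in line 365 against 4.61 and 4.47 in line 167, a difference of 0.83 that did not pass (adjusted p = 0.0725). Hoxd9, at 0.57, and Hoxd3, at -0.17, did not pass either (adjusted p = 0.124 and 0.494), and Hoxd1 was not tested.

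The HOXA cluster ran the other way, with 7 of its 9 tested genes lower in line 365 and 0 higher. Hoxa5, which is needed for lung and for the lower neck and upper chest skeleton, read 7.36 and 7.55 in line 365, against 9.48 and 9.64 in line 167. The difference was -2.11 ± 0.15, or 4.32-fold lower (adjusted p = 0.00523). Hoxa2, the selector of the hyoid arch in the embryonic head, read 5.39 and 5.28 in line 365 against 7.67 and 7.17 in line 167 (-2.08 ± 0.21, adjusted p = 0.0106). For both genes the arrays of line 365 lay well below those of line 167 under either vector.

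The remaining HOXA genes that passed formed a run on both sides of these. Hoxa9, known as a partner of Meis1 in leukaemia, read 5.90 and 5.87 in line 365 against 7.75 and 7.56 in line 167, 3.41-fold lower. Hoxa6 read 5.54 and 5.87 against 7.23 and 7.54 in line 167 (-1.69 ± 0.19), and Hoxa3, which acts in thymus and parathyroid formation, 4.69 and 5.15 against 6.29 and 6.44 in line 167 (-1.44 ± 0.19). In none of these genes did an array of line 365 reach the lower array of line 167. Hoxa10, which acts in the lumbar spine and the uterus, read 5.85 and 5.73 in line 365 against 7.03 and 6.93 in line 167 (-1.19 ± 0.19), and Hoxa7 6.94 and 6.70 against 8.10 and 7.78 (-1.12 ± 0.18). Adjusted p for these 5 genes lay between 0.0123 and 0.0285. The exception inside the run was Hoxa4, at 6.34 and 6.64 in line 365 against 6.70 and 6.69 in line 167 (-0.20, adjusted p = 0.566). At the 5′ end Hoxa11 was at 0.39 (adjusted p = 0.189), and Hoxa13, which was not tested, reached the limit on 1 array.

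The HOXC cluster was split along its length. Hoxc8, which acts in the lower chest skeleton and in motor neurons of the forelimb, read 9.15 and 9.38 in line 365 against 7.16 and 7.73 in line 167, a difference of 1.82 ± 0.17, or 3.53-fold (adjusted p = 0.00995). Hoxc6 read 7.59 and 7.74 in line 365 against 6.28 and 6.71 in line 167 (1.17 ± 0.19, adjusted p = 0.0309). A few genes further 5′, Hoxc10, which acts at lumbar and hindlimb levels, read 6.01 and 6.84 in line 365 against 8.42 and 8.97 in line 167, and its difference was -2.27 ± 0.18, or 4.83-fold lower (adjusted p = 0.00713). Hoxc9, between them, had -0.53 (7.02 and 7.06 in line 365 against 7.46 and 7.68 in line 167, adjusted p = 0.135). Hoxc4 at the 3′ end read 6.28 and 6.51 in line 365 against 6.25 and 6.90 in line 167, with overlapping lines. Hoxc11 and Hoxc13 were below the limit on all 4 arrays and Hoxc12 on 2.

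In the HOXB cluster 2 of 9 tested genes passed, both lower in line 365. Hoxb6 read 7.27 and 7.27 in line 365 against 8.53 and 8.53 in line 167 (-1.26 ± 0.16, adjusted p = 0.0185). Hoxb2, which acts in the hindbrain, read 5.65 and 6.41 in line 365 against 7.40 and 7.45 in line 167 (-1.39 ± 0.25, adjusted p = 0.0379). Each was lower in line 365 under both vectors, with Hoxb2 differences of -1.75 on the Smarcb1 arrays and -1.03 on the empty-vector arrays. Hoxb9 read 7.13 and 6.71 in line 365 against 8.02 and 7.42 in line 167, and Hoxb7 6.66 and 6.32 against 7.34 and 7.10. Neither passed at adjusted p = 0.0591 and 0.0752. Hoxb4, known in blood stem cells, at 6.55 and 6.50 in line 365 against 6.67 and 6.76 in line 167, and Hoxb3, which read 6.14 and 6.14 against 6.47 and 6.46, did not pass (-0.19 and -0.32, adjusted p = 0.561 and 0.319).

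**Figure D2:**
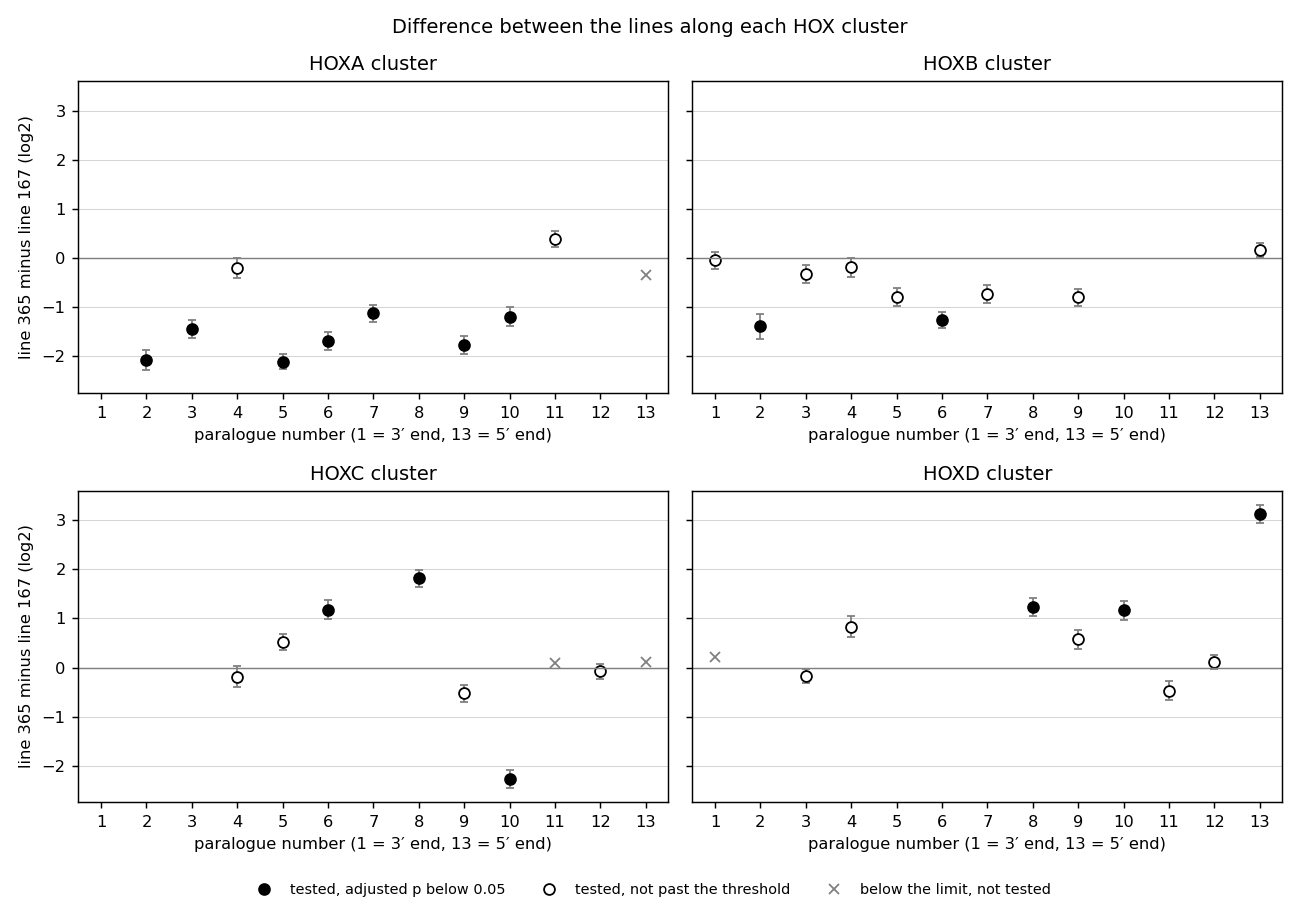
Difference between the lines (365 minus 167, log2, mean over both vectors) against paralogue number in each HOX cluster. Bars are moderated standard errors, filled points passed an adjusted p below 0.05, open points were tested and did not pass, and crosses were below the low-value limit. HOXA points from 2 to 10 lie below 0, HOXC turns from 1.82 at Hoxc8 to -2.27 at Hoxc10, and HOXD reaches 3.12 at Hoxd13.

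By paralogue number, the called genes of groups 1 to 4 were 0 higher and 3 lower in line 365 among 10 tested. Groups 5 to 8 had 3 higher and 4 lower among 10 tested, and groups 9 to 13 had 2 higher and 3 lower among 13 tested. Lower calls thus occurred in all 3 ranges and higher calls in the middle and 5′ ranges. Over all tested genes the shares were 5.31% higher and 5.64% lower, so 0 higher calls among 10 do not set groups 1 to 4 apart. No test between ranges was made. Of the HOX-cluster noncoding RNAs fixed by name, 2 were tested. Hoxaas2, an antisense RNA of the HOXA cluster, read 4.82 and 4.77 in line 365 against 7.09 and 6.77 in line 167 (-2.13 ± 0.19, adjusted p = 0.00898), with the sign of most HOXA genes. The strand read by its probes is not stated, so its signal cannot be told apart from that of genes it overlaps. Hoxd3os1 differed by -0.19 (adjusted p = 0.660).

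The 250 bases before the annotated start of the 3 HOX genes with the widest gaps that have an entry in the promoter table (RefSeq, GRCm38.p6) are shown because their differences have opposite signs: Hoxd13 was higher in line 365, and Hoxa5 and Hoxa2 were lower there. They are written 5′ to 3′ on the strand of the gene, and capitals mark matches on either strand to the MEIS motif TGACAG, the HOX-PBX motif TGATNNAT, the TATA motif TATAAA and the CCAAT motif, which may overlap or abut. Hoxd13 lies on the plus strand (chr2:74667975-74668224), and Hoxa5 (chr6:52204588-52204837) and Hoxa2 (chr6:52164832-52165081) on the minus strand.
Hoxd13: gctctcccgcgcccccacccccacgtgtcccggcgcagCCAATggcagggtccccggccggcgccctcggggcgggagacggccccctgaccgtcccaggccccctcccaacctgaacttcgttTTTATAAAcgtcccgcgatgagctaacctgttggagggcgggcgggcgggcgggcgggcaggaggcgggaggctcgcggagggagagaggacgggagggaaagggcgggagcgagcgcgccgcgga
Hoxa5: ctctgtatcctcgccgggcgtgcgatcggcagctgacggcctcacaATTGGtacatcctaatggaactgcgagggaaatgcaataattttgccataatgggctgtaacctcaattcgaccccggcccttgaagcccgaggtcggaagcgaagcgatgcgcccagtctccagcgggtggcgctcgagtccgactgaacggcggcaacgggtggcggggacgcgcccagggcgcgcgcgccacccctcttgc
Hoxa2: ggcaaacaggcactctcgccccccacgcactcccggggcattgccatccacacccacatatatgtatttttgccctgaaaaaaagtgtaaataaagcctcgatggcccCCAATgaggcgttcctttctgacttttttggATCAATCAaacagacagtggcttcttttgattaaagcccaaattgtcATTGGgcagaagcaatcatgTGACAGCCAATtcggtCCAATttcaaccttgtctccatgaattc
The Hoxd13 window holds TATAAA on both strands, overlapping, with first bases 124 and 126 bases before the start. Hoxa2 holds 1 MEIS match, 44 bases before the start, which abuts a CCAAT match, and 1 HOX-PBX match at 111. Hoxa5 holds a single CCAAT match, and 28 CpG against 6 in the Hoxa2 window.

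Over all 32851 windows of this kind, 15.9% hold the MEIS motif, 7.68% the HOX-PBX motif, 12.4% TATAAA and 33.8% CCAAT. Among the 39 windows of the 33 members with an entry, 4 hold the MEIS motif (Hoxa2, Hoxa3, Lhx1 and Lhx9) and 4 the HOX-PBX motif (Hoxa2, Hoxb1, Hoxd11 and Lhx4), 5 hold TATAAA and 20 CCAAT. Median GC content was 59.6% for the members' windows and 52.4% for all. A match is a run of letters and not a shown binding site.

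Among the cofactors, 2 of the 3 Meis genes passed between the lines, Meis1 and Meis2, both higher in line 365, and 0 of the 3 Pbx genes did. Meis1, which keeps blood stem cells and marks the upper limb near the trunk, read 9.67 and 8.93 in line 365, against 8.34 and 7.67 in line 167 (1.30 ± 0.15, 2.46-fold, adjusted p = 0.0140). Meis2, its close relative in limb and palate, read 9.16 and 8.14 in line 365, against 7.41 and 6.72 in line 167 (1.59 ± 0.18, 3.02-fold, adjusted p = 0.0142). The lines did not overlap for either, which again adds little to the test. Meis3 pointed the other way, at 7.18 and 7.45 in line 365 against 7.75 and 7.99 in line 167 (-0.55, adjusted p = 0.109).

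Pbx3 read 7.63 and 7.64 in line 365 against 8.20 and 8.32 in line 167 (-0.63 ± 0.16, adjusted p = 0.0800). Pbx2 read 7.47 and 7.34 in line 365 against 7.56 and 7.65 in line 167, and Pbx4 was at -0.30 (adjusted p = 0.519 and 0.414). All 3 Pbx genes had the sign of Meis3 and not that of Meis1 and Meis2.

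Lhx2, which acts in eye, forebrain, limb and hair follicle, was the LIM homeobox gene that passed between the lines. It read 8.24 and 8.38 in line 365 against 6.46 and 7.38 in line 167 (1.39 ± 0.25, 2.62-fold, adjusted p = 0.0369). Lhx9, which acts in gonad and limb, read 8.87 and 7.75 in line 365 against 6.29 and 7.42 in line 167, and did not pass (1.46 ± 0.54, adjusted p = 0.155). Most of its gap was on the Smarcb1 arrays, at 2.58, with 0.33 on the empty-vector arrays. This unevenness is the residual of the fit and widens the standard error of Lhx9. The other 6, among them the pituitary genes Lhx3 and Lhx4 and the forebrain genes Lhx6 and Lhx8, lay between 4.08 and 5.85 on all arrays with line differences of at most 0.29 in size.

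**Figure D3:**
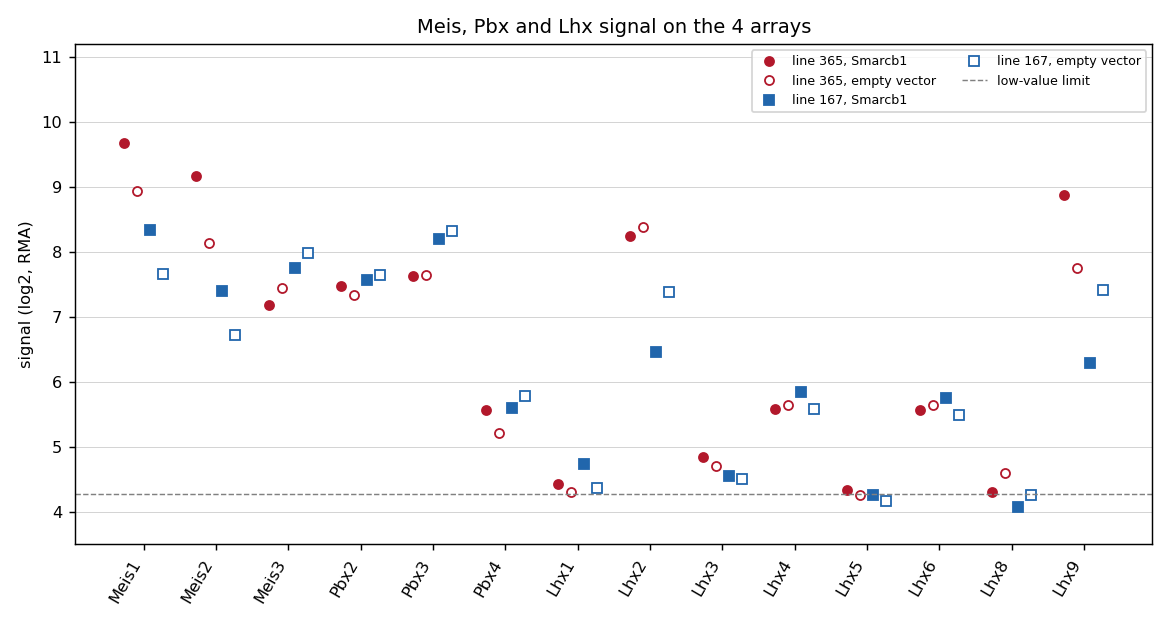
Signal of the 3 Meis, 3 Pbx and 8 Lhx genes on each of the 4 arrays (log2 RMA signal), with the low-value limit dashed. Meis1 and Meis2 step down from line 365 with Smarcb1 (9.67 and 9.16) to line 167 with empty vector (7.67 and 6.72), and for Lhx9 the Smarcb1 arrays are the highest (8.87, line 365) and the lowest (6.29, line 167).

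The comparison of Smarcb1 with empty vector asks which of these genes respond within 3 days. In the limma fit 0 of the 46 tested members passed, against 0.0645% of all tested genes (9 genes). An unadjusted p below 0.05 was found for 6 of the 46 members and for 1613 of all 13956 genes (11.6%), which is a similar share. Those 6 were Meis1 and Meis2 (higher) and Hoxb5, Hoxc10 and Hoxd10 (lower), with Hoxb9 (higher). The lowest adjusted p of a member was 0.213. Over all 51 members, tested or not, 17 were higher in both lines, 17 lower in both and 17 of opposite sign. These signs were not counted over all tested genes, so the split does not set the members apart. The median change of the members was 0.003 in line 365 and -0.009 in line 167 (all tested genes -0.006 and -0.055).

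Meis1 and Meis2 were the 2 of the 46 tested members at least 1.5-fold higher with Smarcb1 in both lines. Of all tested genes 2.79% reached this size, and a count of 2 does not set the members apart. Meis1 read 9.67 with Smarcb1 against 8.93 with empty vector in line 365, and 8.34 against 7.67 in line 167. Meis2 read 9.16 against 8.14 in line 365 and 7.41 against 6.72 in line 167. Within each line the Smarcb1 array was thus the higher one for both genes. The mean changes were 0.71 ± 0.15 for Meis1 (adjusted p = 0.213) and 0.85 ± 0.18 for Meis2 (adjusted p = 0.222), or 1.63-fold and 1.81-fold, and neither passed. On the same arrays the mesenchymal marker sum was 11815 with Smarcb1 against 11188 with empty vector in line 365, and 21105 against 18814 in line 167, and its part in these changes was not tested. Meis3 had the opposite sign, at -0.26 in line 365 and -0.24 in line 167.

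Their upstream windows are shown because both genes passed between the lines and had the same sign with Smarcb1 in each line, where neither passed. Both lie on the minus strand (GRCm38.p6, RefSeq), Meis1 at chr11:19018970-19019219 and Meis2 at chr2:116064620-116064869, with capitals as before.
Meis1: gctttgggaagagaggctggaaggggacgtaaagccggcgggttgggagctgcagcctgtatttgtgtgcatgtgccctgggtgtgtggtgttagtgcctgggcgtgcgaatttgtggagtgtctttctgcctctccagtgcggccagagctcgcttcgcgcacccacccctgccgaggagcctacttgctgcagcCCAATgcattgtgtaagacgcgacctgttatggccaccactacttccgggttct
Meis2: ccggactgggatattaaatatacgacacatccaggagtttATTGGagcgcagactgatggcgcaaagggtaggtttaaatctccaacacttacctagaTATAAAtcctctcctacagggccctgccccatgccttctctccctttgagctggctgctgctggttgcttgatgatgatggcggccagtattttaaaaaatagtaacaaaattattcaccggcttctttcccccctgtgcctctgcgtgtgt
Each holds 1 CCAAT match, 54 bases before the start in Meis1 and, on the other strand, 210 in Meis2, and Meis2 holds TATAAA at 152. Neither window holds the MEIS or the HOX-PBX letters.

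Hoxb5 was the 1 of the 46 tested members at least 1.5-fold lower with Smarcb1 in both lines. Of all tested genes 1.35% reached this size, and a count of 1 does not set the members apart. It read 5.48 with Smarcb1 against 6.47 with empty vector in line 365, and 6.35 against 7.18 in line 167. The mean change was -0.92 ± 0.19 (adjusted p = 0.216), about the same size in both lines, at -0.995 and -0.835. Its cluster neighbours differed from it: Hoxb6 had 0.003 and -0.009, Hoxb4 0.04 and -0.09, and Hoxb7 0.34 and 0.24 in lines 365 and 167.

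Other HOX genes moved less. Hoxc10 read 6.01 against 6.84 in line 365 and 8.42 against 8.97 in line 167 (-0.69 ± 0.18, adjusted p = 0.298), and Hoxd10 6.05 against 6.77 and 5.03 against 5.45 (-0.57 ± 0.19, adjusted p = 0.384). Both paralogues of group 10 in those clusters were lower with Smarcb1 in both lines, while Hoxa10 had 0.12 and 0.10. Hoxb9, a chest-level gene, read 7.13 against 6.71 in line 365 and 8.02 against 7.42 in line 167 (0.51 ± 0.18, adjusted p = 0.402). Changes of at least 1.5-fold in 1 line were those of Hoxb2 (-0.77 in line 365, -0.04 in line 167), Hoxd4 (0.75 and 0.14), Hoxc4 (-0.23 and -0.65) and Hoxb9 (0.42 and 0.60), besides those of Hoxc10 and Hoxd10 in line 365. Hoxd13 and Hoxa5, which set the lines apart, changed by -0.05 and -0.19 in line 365 and by 0.05 and -0.16 in line 167.

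Single-line changes of at least 2-fold were found in 2 of the 46 tested members in line 365 (Meis2 and Lhx9), against 4.01% of all tested genes. In line 167 they were found in 1 of the 46 (Lhx9), against 4.89%. Lhx9 went opposite ways. It read 8.87 with Smarcb1 against 7.75 with empty vector in line 365, and 6.29 against 7.42 in line 167, so that the changes were 1.12 and -1.13 and the mean change was -0.003 (adjusted p = 0.999). With 1 array per line and vector, the difference between these responses has no test. Lhx2 had -0.14 in line 365 and -0.92 in line 167 (adjusted p = 0.501).

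The upstream window of Lhx9 (GRCm38.p6, RefSeq, minus strand, chr1:138842445-138842694) is shown because its response turned with the line. Capitals again mark the motif letters.
Lhx9: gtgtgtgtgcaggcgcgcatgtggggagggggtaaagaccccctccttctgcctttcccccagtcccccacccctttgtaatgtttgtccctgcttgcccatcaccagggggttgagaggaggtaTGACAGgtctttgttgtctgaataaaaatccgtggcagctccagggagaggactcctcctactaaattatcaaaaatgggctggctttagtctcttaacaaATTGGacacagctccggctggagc
It holds 1 MEIS match, 125 bases before the start, and 1 CCAAT match on the other strand at 24, and it has 4 CpG.

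**Figure D4:**
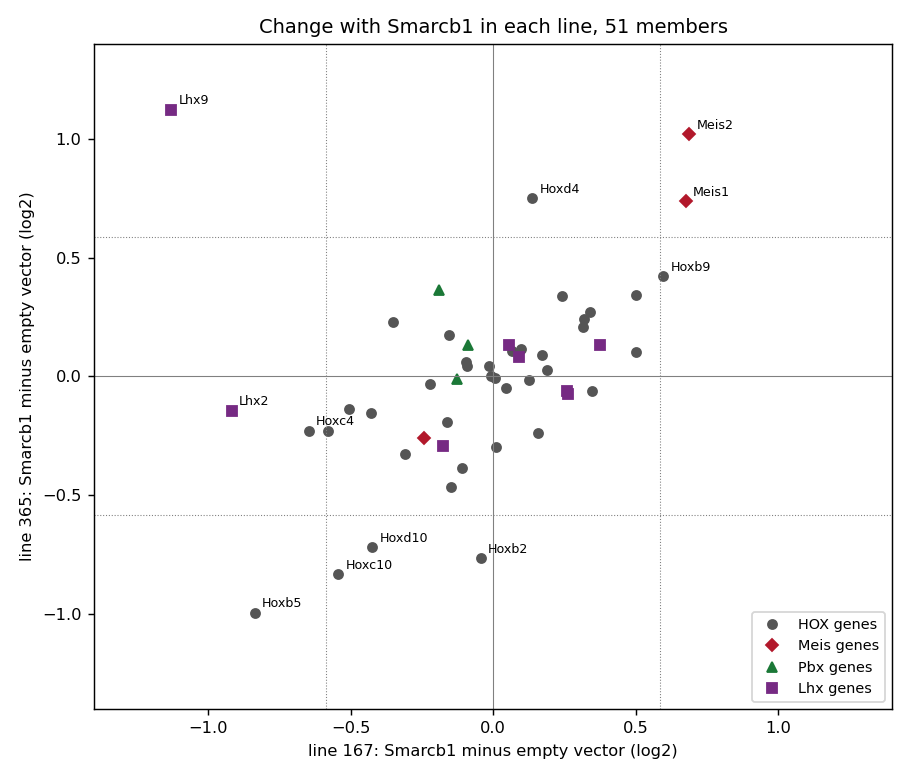
Change with Smarcb1 (Smarcb1 minus empty vector, log2) of the 51 members in line 167 (horizontal axis) and line 365 (vertical axis), with dotted lines at 1.5-fold and names for members past it in either line. Meis1 and Meis2 lie at the upper right, Hoxb5 at the lower left, and Lhx9 at the upper left with -1.13 in line 167 and 1.12 in line 365.

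Related gene lists fixed by name are given beside these values. Of all tested genes 5.31% were called higher and 5.64% lower in line 365, and 0.0645% passed for Smarcb1. With so low a share, 0 calls for Smarcb1 do not set a list apart. Of the retinoic acid pathway, which switches on 3′ HOX genes in the embryo, 0 of 15 tested genes passed for Smarcb1, and between the lines 2 were higher and 4 lower in line 365. Aldh1a3, which makes retinoic acid, read 8.85 and 10.66 in line 365 against 6.29 and 6.40 in line 167 (3.41 ± 0.42, adjusted p = 0.0169), and Cyp26b1, which degrades it, was higher there too (1.39 ± 0.19, adjusted p = 0.0207), while the carrier Crabp2 was lower (-1.74 ± 0.27, adjusted p = 0.0273). With Smarcb1, Dhrs3, which returns retinaldehyde to retinol, read 8.52 against 5.68 with empty vector in line 365 and 9.71 against 5.67 in line 167, a mean change of 3.44 that did not pass (adjusted p = 0.0694). Aldh1a1, another enzyme making retinoic acid, was at 2.08 (adjusted p = 0.112) and the carrier Crabp1 at -1.03 (adjusted p = 0.124).

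Of the limb and body position transcription factors 1 of 30 tested was higher and 4 were lower in line 365 (all tested genes 5.31% and 5.64%). For Smarcb1 0 passed, against 0.0645% of all tested genes. Prrx1, a limb and face mesenchyme gene also counted among the mesenchymal markers, read 8.95 and 9.04 in line 365 against 11.91 and 11.68 in line 167 (adjusted p = 0.00296). En1, the ventral limb and midbrain gene, read 5.05 and 5.34 in line 365 against 7.29 and 8.22 in line 167 (-2.56 ± 0.24, adjusted p = 0.00949). Pax3, a gene of muscle precursors and neural crest, was higher in line 365, at 7.38 and 7.03 against 4.86 and 4.97 in line 167 (2.29 ± 0.21, adjusted p = 0.00971). The smallest p for Smarcb1 were those of Foxf2 (0.68), Alx1 (-0.48) and En1 (-0.61), at adjusted p from 0.300 to 0.439.

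Genes that flank the HOX clusters or belong to the ParaHox group gave 0 calls among 13 tested in either comparison. Between the lines 10.9% of all tested genes passed. Mtx2 and Lnpk, beside HOXD, had 0.11 and 0.39 between the lines (adjusted p = 0.679 and 0.190), against 3.12 for Hoxd13. Other LIM homeobox genes and LIM partners had 1 call among 11 tested, the Ldb1-binding gene Ssbp2, lower in line 365 (-2.03 ± 0.22, adjusted p = 0.0140). Lmo4, a LIM-only protein gene, read 8.51 against 7.21 in line 365 and 8.53 against 7.57 in line 167 with Smarcb1 and empty vector (1.13, adjusted p = 0.138).

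Between the lines, where 10.9% of all tested genes passed, other TALE homeobox genes (the class of MEIS and PBX) had 1 call among 10 tested. This was Irx2, higher in line 365 (1.52, adjusted p = 0.0456). The MEIS relative Pknox1 had 0.52 with Smarcb1 (adjusted p = 0.408). Chromatin regulators of HOX genes had 1 call among 21 tested, the H3K79 methyltransferase gene Dot1l, higher in line 365 (1.37, adjusted p = 0.0416), and 0 for Smarcb1, where the Polycomb gene Eed had the smallest p (-0.41, adjusted p = 0.486).

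The other 20 members, which neither differed 2-fold between the lines nor changed 1.5-fold in either and whose mean lay below the median gene, ranged from 3.56 to 5.90 over all arrays, and 15 of them were tested. Their line differences were at most 0.57 and their changes with Smarcb1 at most 0.51 in size. They hold Hoxa11, Hoxa13, Hoxc11, Hoxc12, Hoxc13, Hoxb1, Hoxb13, 5 HOXD genes, Hoxc5, Pbx4 and all Lhx genes but Lhx2 and Lhx9.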

How the data were processed

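RNA from 2 mouse tumour cell lines with and without Smarcb1 was measured on 4 arrays. Signals per probe set were deposited on the log2 scale, and the submitters' processing notes name RMA and Affymetrix Expression Console for them. Neither version nor settings nor a genome build is stated. RMA as a rule subtracts background, sets the arrays to one distribution (quantile normalization) and summarises probes, which would hide a change in total RNA.

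Gene symbols came from the platform annotation (21789 probe sets with 1 symbol, 1621 with several, 12146 unlisted), and all 51 members matched the RefSeq gene table (GRCm38.p6). For each gene the probe set of highest mean was kept. The 13956 genes with a mean at or above the 30th percentile entered a linear model with line and vector as terms (limma 3.58.1, R 4.3.3, lmFit and eBayes with intensity trend). The two-sided p-values were adjusted by Benjamini-Hochberg over all tested genes, with a threshold of 0.05. Pairing by line follows from the labels, and arrays of a line deviated together (correlation 0.770). The residual has 1 degree of freedom and eBayes added 3.75. Standard errors are moderated. The residual is the difference between the lines in their change with Smarcb1. P-values and standard errors therefore mix array noise, which may be technical, with unlike responses of the lines. With 4 arrays, their number limits the precision.

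The fit was tested on simulated data. Members and lists were chosen with earlier results of these data known. Values on all arrays are given for the 31 members that reach the limit on at least 1 array and differ 2-fold between lines or change 1.5-fold in a line, or whose mean reaches the median gene, and from each list the 3 smallest p per comparison were considered. Filter, normalization, trend, probe set choice, threshold and block were varied.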

Additional observations from a re-analysis of the deposited data

Results flagged for a closer look

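Lhx9 stood out because its change with Smarcb1 had opposite signs in the lines, at 1.12 in line 365 and -1.13 in line 167 (log2). The arrays were 8.87 with Smarcb1 against 7.75 with empty vector in line 365, and 6.29 against 7.42 in line 167. Opposite changes of at least 2-fold in both lines occurred in 6 of the 13956 tested genes (0.043%) and in 1 of the 51 members. The difference was not tested, since each line has 1 array per vector.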

How the results depend on the processing

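Between the lines, the 18 called members kept their sign under quantile normalization and under cyclic loess. The other settings cannot change a member's difference, since the design is balanced and each member has 1 probe set, so its sign is no check there. Under the filter at the 50th percentile 17 were tested, and Hoxa3 fell out. Those tested kept their call under each setting that has both terms. The fit with no replicate block, which drops the vector from the line comparison and the line from the vector comparison, called 10 members and 653 genes between the lines and 0 genes for Smarcb1, and lost Hoxa7, Hoxb2, Hoxc6, Hoxd8, Hoxd10, Lhx2, Meis1 and Meis2. The threshold of 0.10 gave 2915 genes between the lines. For Smarcb1 the 9 genes called became 103 at the threshold of 0.10, 49 under cyclic loess, 48 under quantile normalization, 68 with no filter and 101 when the filter was the 50th percentile, with 0 members under each. The cause of these shifts was not tested. Over these settings adjusted p for Meis1 was between 0.140 and 0.266 with the line as a term. Hoxb5, Hoxb7 and Hoxb9 passed between the lines with the filter at the 50th percentile (adjusted p = 0.0442, 0.0476 and 0.0353). Leaving out a line or a vector leaves 1 array per group, so it gives values and no counts of calls. Members near the low-value limit have uncertain sizes of change.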

Other observations

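The HOX clusters also hold microRNA genes, and 6 of their precursors have probe sets (chosen after their values were seen). The precursors Mir10a, Mir10b, Mir196a-1, Mir196a-2 and Mir196b read between 2.55 and 4.20 on the 4 arrays, below the low-value limit. Mir615, within HOXC, read 6.40 with Smarcb1 and 6.35 with empty vector in line 365, against 6.51 and 6.13 in line 167. These probe sets read precursor transcripts, and mature microRNAs were not measured.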
